A study of Mus musculus with 2 samples.

Results

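Mir191 and Mir425 are 2 neighbouring microRNA genes on mouse chromosome 9 whose hairpins lie on the same strand, 384 bases apart. They were chosen by gene symbol, and both were found among the 2202 microRNA genes of the tables. The counts come from microRNA-seq, which sequences small RNA, in 2 libraries; their labels name a layer of the hippocampus as the tissue. The tissue came from adult males of 8 to 10 months whose strain label is 5xFAD/CAST. 5xFAD mice are a transgenic model of Alzheimer disease, whose transgenes are driven by the Thy1 promoter, active mainly in neurons. CAST is a wild-derived strain. Both libraries belong to that 1 group and no control was analysed, so neither genotype nor age was compared. The labels give each library its own tissue record and both a shared donor record. Whether the libraries come from separate animals is not settled by the labels. The spread between the libraries, and every p-value below, may therefore be technical and cannot be taken to measure variation between animals.

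A microRNA is cut from a hairpin in a longer transcript, and either arm of the hairpin can give a mature strand of about the length that these libraries select. Bases 2 to 8 of the mature strand, the seed, pair with target mRNAs. Hairpins that lie close together on 1 strand are commonly cut from 1 primary transcript. miR-191 is known as a widely expressed microRNA that is often used as a reference in qPCR. In rodent hippocampal neurons it is known to act on Tmod2, which encodes an actin-capping protein of dendritic spines. In mouse red cell precursors, miR-191 is known to hold back the loss of the nucleus. miR-425 is less studied in brain, and in human cells it is known to act on the mRNA of atrial natriuretic peptide.

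The mature strands are shown because they tell how far the neighbours can stand in for each other as regulators. They come from the RefSeq table of build GRCm38.p6, which holds both genes, run 5′ to 3′, and have the seed in capitals.
mmu-miR-191-5p: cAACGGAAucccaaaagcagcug
mmu-miR-191-3p: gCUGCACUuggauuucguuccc
mmu-miR-425-5p: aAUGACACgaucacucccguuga
mmu-miR-425-3p: aUCGGGAAugucguguccgcc
mmu-miR-489-3p: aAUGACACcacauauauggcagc
The 4 strands of the cluster had 4 different seeds. The longest run of bases that any strand of Mir191 shared with a strand of Mir425 was 5. Among the 1738 mature strands of the table, miR-489-3p was the only strand of another gene with a seed of the cluster, and its first 8 bases equalled those of miR-425-5p. Its gene, Mir489 on chromosome 6, had 0 reads in both libraries, which allows up to 0.877 CPM in replicate 1 and 1.06 CPM in replicate 2 (3 reads; CPM is reads per 1000000 reads assigned to microRNA genes). Mir489 shares no stretch of 20 bases with a microRNA gene at another place. At this depth, no read of the gene that shares the seed of miR-425-5p was counted.

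The hairpins are shown because the counts are per hairpin and the arms cannot be told apart in them. Capitals mark the mature strands.
Mir191: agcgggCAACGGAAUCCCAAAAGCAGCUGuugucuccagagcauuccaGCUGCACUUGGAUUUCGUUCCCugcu
Mir425: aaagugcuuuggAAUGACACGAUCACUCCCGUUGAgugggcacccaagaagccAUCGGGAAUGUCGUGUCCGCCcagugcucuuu
Both RefSeq hairpins equal those of the GENCODE M21 transcripts, the annotation of the counts. The Mir191 hairpin has 74 bases and the Mir425 hairpin 85, with a GC content of 54.1% in each, against a median of 52.1% over the 389 detected genes. Detection here means 10 or more reads in each library. The folds that RNAfold predicted had a free energy of -35.0 kcal/mol for Mir191 and -31.7 kcal/mol for Mir425, against a median of -36.5 kcal/mol over detected hairpins, and each fold paired 56 bases. The neighbours were thus alike in GC content, near the middle of the detected hairpins. Of the detected hairpins, 52.7% had a lower free energy than Mir191 and 66.6% a lower one than Mir425. The paired bases made up 75.7% of the Mir191 hairpin and 65.9% of the longer Mir425 hairpin. Free energy was not adjusted for length. Neither hairpin shares 20 bases with a microRNA gene at another place.

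Mir191 (ENSMUSG00000105497.1) lies at chr9:108568319-108568392 and Mir425 (ENSMUSG00000065579.1) at chr9:108568777-108568861, both on the plus strand of mm10. The annotations differ on the gene around them. In the RefSeq gene table, Dalrd3 spans positions 108567484 to 108572773 and so holds both hairpins. Dalrd3 encodes a protein known from human cells to be needed for methylation of arginine tRNAs. In GENCODE M21, Dalrd3 begins at 108569886, 1024 bases past the end of Mir425, and the hairpins lie in the noncoding gene 4833445I07Rik (108567533 to 108569174). Both hairpins are exonic in its single-exon transcript 4833445I07Rik-201. In transcript 4833445I07Rik-202, Mir191 lies in the intron (108568181 to 108568483), and Mir425 begins 2 bases past the transcript's end at 108568774. GENCODE M21 therefore does not place the pair in an intron of Dalrd3, and the RefSeq table gives no exons. M21 also lists Gm24083, a microRNA gene of 120 bases on the minus strand (108568295 to 108568414), which covers the whole Mir191 hairpin and does not reach Mir425.

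**Figure D1:**
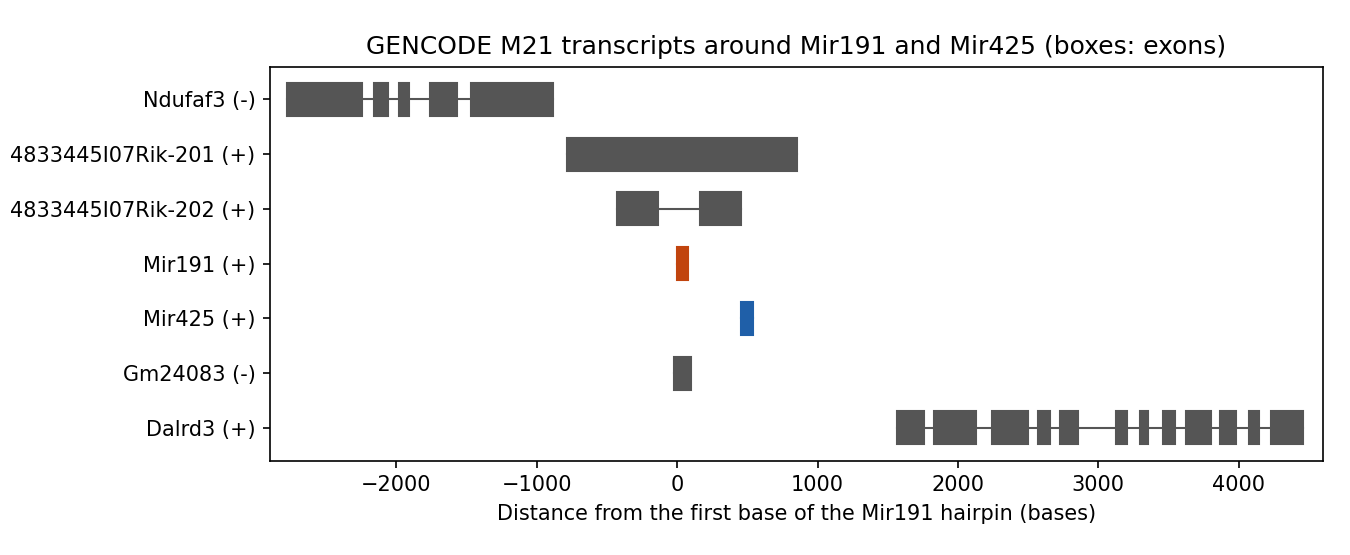
GENCODE M21 transcripts around the hairpins, by distance in bases from the first base of Mir191. Boxes are exons, lines introns and signs the strand. Mir191 lies in the intron of 4833445I07Rik-202 and under the minus-strand gene Gm24083, Mir425 lies past the end of 4833445I07Rik-202, and Dalrd3 begins further downstream.

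Mir191 was among the abundant microRNA genes of this tissue and Mir425 was of moderate level. The files give raw read counts, and the values used are those counted on each gene's own strand. In replicate 1, microRNA genes received 3421977 of 9713924 reads, and in replicate 2 they received 2820468 of 8551453. Reads that fit several places, 41.6% in replicate 1 and 38.2% in replicate 2, carry no gene name, so ranks hold among assigned reads only. In bulk tissue, the number of cells that express a microRNA and its level per cell cannot be told apart.

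Mir191 had 34886 reads in replicate 1 and 25562 in replicate 2. Replicate 1 thus had 10195 CPM (exact 95% interval 10089 to 10302) and replicate 2 had 9063 CPM (8953 to 9174), with intervals that cover counting error only. The mean was 9629 ± 800 CPM (SD, n = 2), or 0.963% ± 0.080 of assigned reads. Mir191 ranked 20 in replicate 1, 23 in replicate 2 and 23 by the mean, 91.4 times the median detected gene (105 CPM). The libraries thus placed it alike, although their intervals do not overlap.

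Mir425 had 1357 reads in replicate 1 and 2111 in replicate 2. This is 397 CPM in replicate 1 (375.7 to 418) and 748 CPM in replicate 2 (717 to 781), with a mean of 573 ± 249 CPM (SD, n = 2). It ranked 131 in replicate 1, 105 in replicate 2 and 121 by the mean, 5.43 times the median detected gene. Mir425 was higher in replicate 2, where Mir191 was lower. Relative to the mean, the SD was 8.31% for Mir191 and 43.5% for Mir425. Together the members held 1.06% of the reads with a gene in replicate 1 and 0.981% in replicate 2, and the cluster as a whole followed Mir191.

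**Figure D2:**
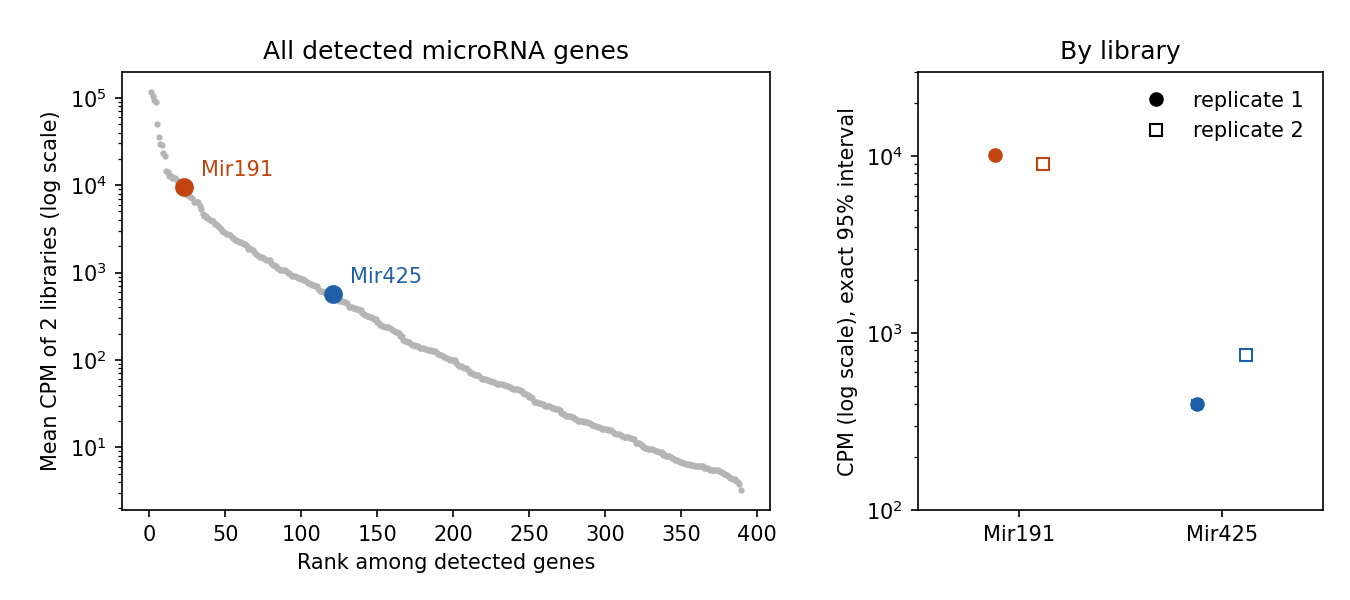
Left, mean CPM (log scale) of the 389 detected genes by rank, with Mir191 at rank 23 and Mir425 at rank 121. Right, CPM of each gene (log scale) in replicate 1 (filled circles) and replicate 2 (open squares) with exact 95% intervals, which are mostly hidden by the symbols; Mir191 was higher in replicate 1 and Mir425 in replicate 2.

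The genes nearest in level show where the members stood among the microRNAs counted in this tissue. Above Mir191 by mean CPM were Mir92b (9883 ± 5164), Mir125a (10581 ± 5848) and Mir770 (10597 ± 972, in the imprinted Meg3 region). Below it came Mir143 (9132 ± 5174), a smooth muscle and pericyte microRNA, Mir221 (7669 ± 567) and Mir126a (7667 ± 287), an endothelial microRNA. Mir191 differed from 4 of these 6 by less than the larger SD of each pair, and exceeded Mir221 and Mir126a in both libraries by more than that. Its order against the other 4 changed with the library: in replicate 1 it was above Mir92b, Mir125a and Mir770 and below Mir143, and in replicate 2 the reverse held. For Mir425 the neighbours were Mir381 (574 ± 325 CPM), Mir532 (578 ± 79.3) and Mir375 (581 ± 177) above it. Below it were Mir672 (551 ± 10.1), Mirlet7c-1 (502 ± 101) and Mir1843b (496 ± 72.3). All 6 lay within the larger SD of each pair, so the place of Mir425 among them is not resolved. Mirlet7c-1 and Mir1843b share sequence with another microRNA gene and their own levels are uncertain. Likeness here is the difference in mean CPM over 2 libraries and says nothing of shared function.

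Both members differed between the libraries beyond counting error, in opposite directions. For each of the 389 detected genes, the split of its reads between the libraries was set against that of the TMM-scaled library sizes (two-sided exact binomial test, Benjamini-Hochberg adjustment over all 389, threshold 0.05). The test compares these libraries and no conditions. Mir191 was 1.20-fold higher in replicate 1 than in replicate 2, with a log2 ratio of 0.27 (exact 95% interval 0.25 to 0.29, adjusted p = 2.25e-113, exact test). Mir425 had a log2 ratio of -0.82 (-0.92 to -0.72, adjusted p = 1.44e-60, exact test), 1.76-fold higher in replicate 2 than in replicate 1. The same test called 263 of 389 genes, or 67.6%, with 33.7% higher in replicate 1 and 33.9% higher in replicate 2. A call is therefore the usual outcome at this depth, and the sizes say more. Of the 241 genes with at least 100 reads in each library, 74 had a ratio nearer to 1 than Mir191 and 177 had one nearer to 1 than Mir425. Mir191 was on the steadier side of these genes and Mir425 on the less steady side. The median of all detected genes was -0.05 on the log2 scale, and relative to it Mir191 was at 0.32 and Mir425 at -0.76. Neither member passed the edgeR exact test, whose error is the spread between the libraries. The unadjusted p was 0.75 for Mir191 and 0.34 for Mir425, with an adjusted p of 1 for each, and this test called 0.514% of genes. That error contains the difference it is set against.

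**Figure D3:**
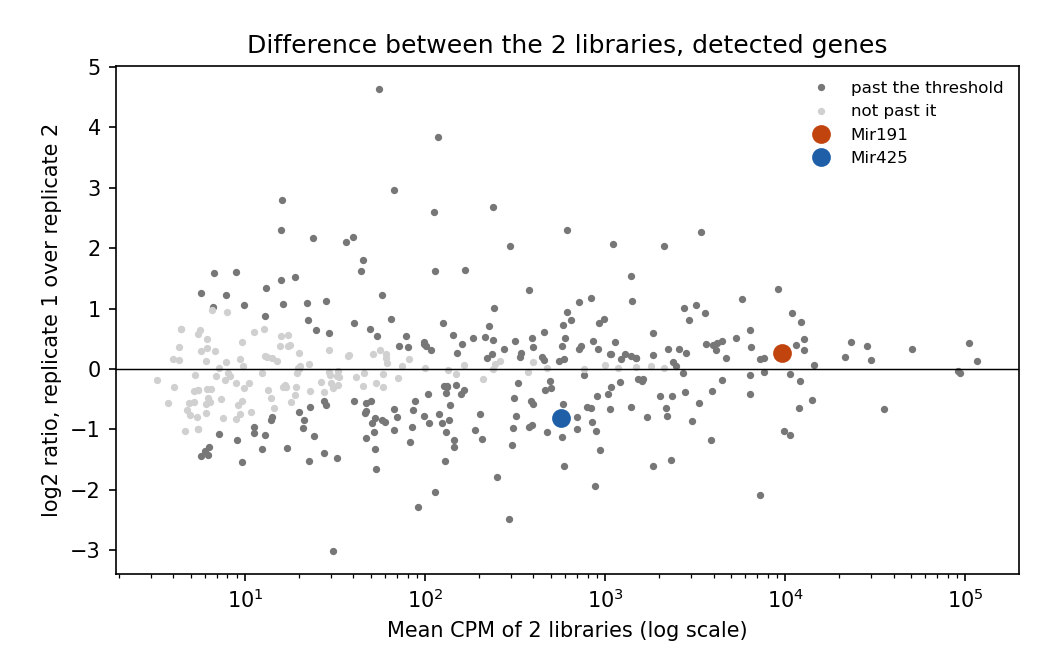
Log2 ratio of replicate 1 over replicate 2 (TMM-scaled counts) against mean CPM (log scale) for the 389 detected genes. Dark points passed the exact binomial test and pale points did not; Mir191 lies at 0.27 and Mir425 at -0.82, both within the cloud of genes of their level.

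The hairpins of the pair were far apart in level, and the gap between them changed with the library. For each read of Mir425, replicate 1 held 25.7 reads of Mir191 (exact 95% interval 24.4 to 27.2) and replicate 2 held 12.1 (11.6 to 12.7). As a share of the cluster's reads, Mir191 took 96.3% in replicate 1 and 92.4% in replicate 2. The mean log2 ratio was 4.14 ± 0.77 (SD, n = 2), and Mir191 was the higher gene in both libraries. Both counts come from the same library, so library size cancels. The ratio was 2.12 times as high in replicate 1 as in replicate 2 (exact 95% interval 1.98 to 2.28), a log2 difference of 1.09. By the two-sided Fisher exact test, adjusted over 106 pairs, the adjusted p was 3.04e-100. The same test called 74 of these pairs, or 69.8%.

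Those pairs are all the neighbouring detected hairpins on 1 strand within 10 kb of each other, with the upstream gene over the downstream one. They share genes where a cluster is long, and 47 lie on chromosome 12, so they are not independent. The median pair differed by 2.76 on the log2 scale, or 6.79-fold, and the range ran from 0.13 to 7.73. Of the other pairs, 71 were closer in level than Mir191 and Mir425 and 34 were further apart. In 53 pairs the upstream gene was higher in both libraries, as here, in 45 the downstream gene was, and the remaining 8 did not keep their order in both. The gap between the hairpins moved more between the libraries in 31 pairs than here, with a median log2 change of 0.71. The members changed in opposite directions in 46 of 106 pairs, or 43.4%. A wide gap, a changing gap and opposite directions were each common among neighbours in these libraries. Among the 26 clusters of 2 detected hairpins alone, a group chosen after the data were seen, 13 pairs were closer in level and 12 further apart.

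The pairs nearest in size of ratio show the same spread of behaviour. Mir143 over Mir145a, the neighbours of the vascular wall, had ratios of 12.7 in replicate 1 and 24.9 in replicate 2. Mir29b-2 over Mir29c had ratios of 0.040 in replicate 1 and 0.075 in replicate 2. Mir362 over Mir501, on the X chromosome, had ratios of 0.053 in replicate 1 and 0.061 in replicate 2, with no difference past the threshold (adjusted p = 0.58, Fisher exact test). At the ends of the range, Mir669l over Mir467c differed 1.10-fold and Mir29b-1 over Mir29a 212-fold. The Mir29b and Mir669l pairs share sequence with other genes, so their ratios are uncertain. Mir191 and Mir425 do not share sequence in this way, but other errors in a ratio between 2 hairpins were not tested.

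**Figure D4:**
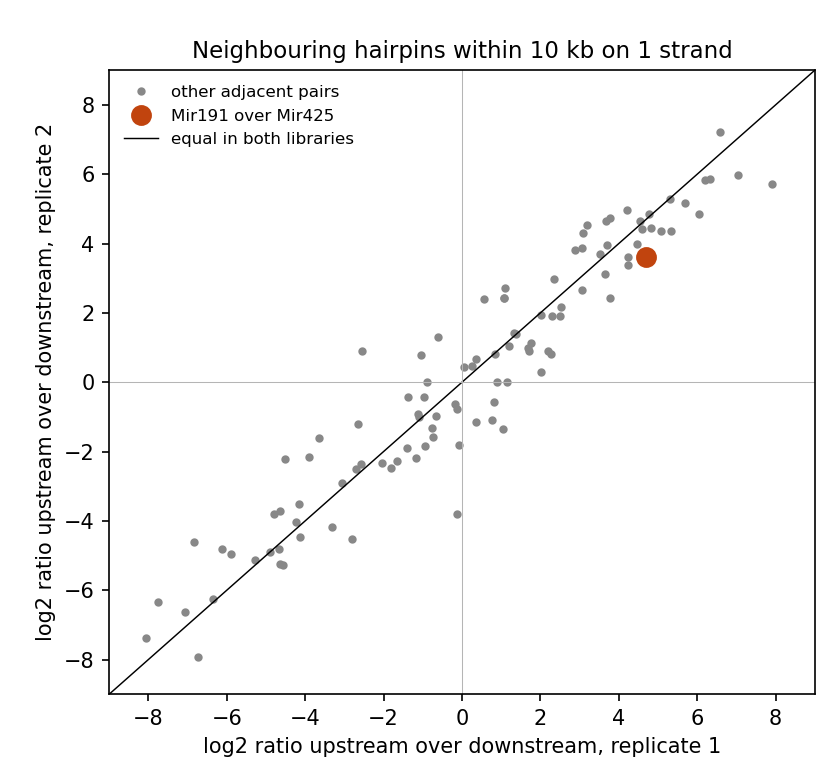
Log2 ratio of the upstream over the downstream hairpin for 106 neighbouring pairs, in replicate 1 (horizontal) and replicate 2 (vertical). On the diagonal the ratio is equal in both libraries; Mir191 over Mir425 lies at 4.68 in replicate 1 and 3.60 in replicate 2, below the diagonal.

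The reads of Mir191 stand under its own name in only 1 of the 3 deposited count columns, which differ in how they use strand. In the column without regard to strand, Mir191 had 0 reads in both libraries, against 34886 reads in replicate 1 and 25562 in replicate 2 in the column of the gene's strand. In the opposite-strand column, Gm24083 had 34886 reads in replicate 1 and 25562 in replicate 2, exactly the reads of Mir191. On its own strand Gm24083 had 0 reads in both libraries. The reads left out equal 14.9% of the ambiguous reads of the column without strand in replicate 1 and 14.5% in replicate 2. Mir425, which Gm24083 does not reach, had 1357 reads in replicate 1 and 2111 in replicate 2 in both columns. Without regard to strand, the cluster would appear as Mir425 alone. Of the 389 detected genes, 26 overlap a microRNA gene on the other strand, and 24 of these had 0 reads in both libraries without regard to strand. Mir191 was the second most abundant of the 26, after Mirlet7e (28537 ± 3852 CPM), a let-7 gene.

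miR-191 and other microRNAs used as qPCR references were not equally steady. The list of 21 such genes, both members included, was taken from general knowledge. Of these, 20 were detected, and Mir103-1 was not, with 9 reads in replicate 1 and 8 in replicate 2. The exact binomial test called 19 of the 20, against 67.6% of all detected genes, 10 higher in replicate 1 and 9 higher in replicate 2. Of the 241 genes with at least 100 reads in each library, the test called 208, or 86.3%. All detected genes of the list except Mir103-2 and Mir24-1 had that depth, so 67.6% is a low background for them. In the list, only Mir30c-2 did not pass (log2 ratio 0.086, adjusted p = 0.31, exact test). The absolute log2 ratio had a median of 0.64 over the list, 0.52 over all detected genes and 0.45 over the 241 genes. Mir30c-2, Mir320 (-0.19), Mir93 (0.24) and Mir16-1 (-0.26) had smaller ratios than Mir191. Mir16-2 (1.63), Mir423 (-1.60), Mir26b (0.93), Mir24-2 (-0.90) and Mir186 (-0.84) had larger ones than Mir425. By the size of the ratio, 4 genes of the list thus lay below Mir191 and 5 above Mir425, but not all of this order is resolved. Without regard to sign, the exact intervals of Mir93 (0.18 to 0.31) and Mir16-1 (-0.45 to -0.07) overlap that of Mir191 (0.25 to 0.29). Those of Mir26b (0.91 to 0.96), Mir24-2 (-1.24 to -0.56) and Mir186 (-1.05 to -0.63) overlap that of Mir425 (-0.92 to -0.72). The intervals of Mir30c-2, Mir320, Mir16-2 and Mir423 do not overlap in this way. Of the genes placed between the members, Mir103-2 (0.29 to 1.34), Mir25 (-1.08 to -0.38) and Mir24-1 (-1.15 to -0.14) also overlap Mir425. Mir30c-1 (0.23 to 0.60) and Mir107 (0.29 to 0.38), with Mir103-2 and Mir24-1, also overlap Mir191. The order within the list was not tested under other scalings. Of the 20, 8 share sequence with another gene and are uncertain, Mir30c-2, Mir16-1, Mir16-2 and Mir24-2 among them.

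**Figure D5:**
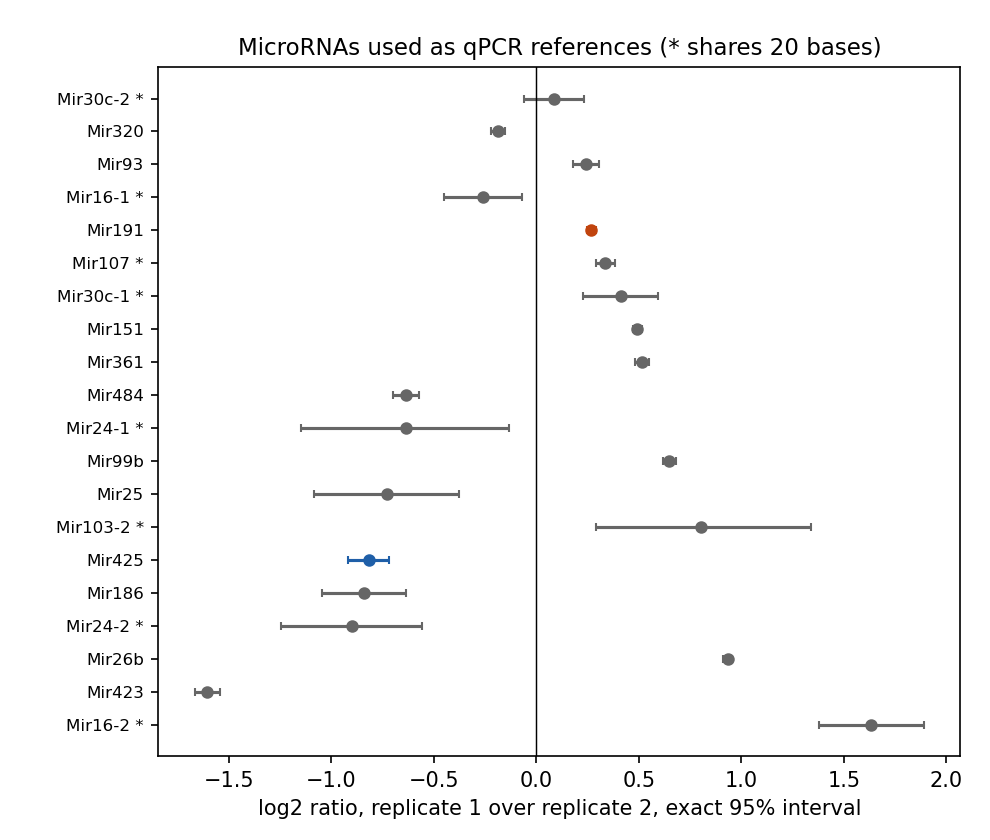
Log2 ratio of replicate 1 over replicate 2 with exact 95% intervals for the 20 detected microRNAs of the qPCR reference list, ordered by the size of the ratio with the smallest at the top. Asterisks mark genes with a stretch of 20 bases found in another microRNA gene. Mir191 lies in the upper part at 0.27, below 4 genes, and Mir425 in the lower part at -0.82, above 5 genes.

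Both members are also known from blood cells, and the blood microRNAs ranged from low to well above Mir425. A blood cell list of 10 genes, each of them detected, summed to 0.526% of assigned reads in replicate 1 and 0.455% in replicate 2, less than Mir191 alone. By the exact binomial test 6 of the 10 differed between the libraries, 5 higher in replicate 1 and 1 in replicate 2, against 67.6% of all detected genes. Mir342 (2370 ± 22.1 CPM), Mir150 (924 ± 292 CPM) and Mir146 (1076 ± 79.4 CPM), known from leukocytes, lay above Mir425 and below Mir191 (SD, n = 2). The other non-erythroid genes of the list lay below Mir425. They were Mir142 (243 ± 105 CPM), Mir155 (220 ± 9.17 CPM), Mir223 (12.7 ± 3.47 CPM) and Mir146b (4.06 ± 0.78 CPM). The levels of Mir146 and Mir146b are uncertain, because each hairpin has a stretch in common with another gene. The erythroid genes were also far below Mir425. Mir451a, which dominates the microRNAs of red blood cells, had 21.6 CPM in replicate 1 and 33.3 CPM in replicate 2. Mir144 had 6.14 CPM in replicate 1 and 6.03 CPM in replicate 2, and Mir486 had 19.9 CPM in replicate 1 and 20.6 CPM in replicate 2. Mir191 was 350.4 times and Mir425 20.8 times the mean level of Mir451a. The 5 genes higher in replicate 1 were Mir142 (log2 ratio 1.01), Mir150 (0.76), Mir146 (0.25), Mir155 (0.18) and Mir342 (0.12). The gene higher in replicate 2 was Mir451a (-0.53), while the other erythroid genes had log2 ratios of 0.12 (Mir144) and 0.050 (Mir486) that did not pass. Mir223 (0.66) and Mir146b (-0.30) did not pass either. Their part in the levels of the members was not tested.

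Markers of broad cell types were also counted in these libraries, but the lists hold none chosen for hippocampus or its layers. The tissue label was therefore not tested. Of the 12 neuron genes listed, 9 were detected and took 3.32% of assigned reads in replicate 1 and 3.44% in replicate 2, led by Mir132 (12751 ± 1353 CPM). The undetected genes were the 3 copies of Mir124a, with 5 reads at most in a library, and these share sequence with each other. The astrocyte-rich genes took 3.83% in replicate 1 and 3.55% in replicate 2, and the oligodendrocyte genes 0.503% in replicate 1 and 0.667% in replicate 2. The endothelial and mural genes took 2.17% in replicate 1 and 1.32% in replicate 2, and the microglia and leukocyte genes 0.521% in replicate 1 and 0.448% in replicate 2. The erythroid genes took 0.0048% in replicate 1 and 0.0060% in replicate 2. Among detected genes, 6 of the 9 neuron genes and 2 of the 3 astrocyte-rich genes share sequence with another gene. So do 1 of the 2 oligodendrocyte genes and 1 of the 6 microglia and leukocyte genes. No endothelial, mural or erythroid gene does. The shares are thus uncertain to different degrees and do not rank the cell types. Mir191, known from many cell types, is not itself a marker of any of the cell types listed.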

How the data were processed

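The authors' tables were made on assembly mm10 with GENCODE M21, per the text notes that accompany them as deposited. Aligner, counting tool and trimming: not given in the sources used here. The deposited values are raw read counts per microRNA gene, ignoring strand, on the gene's own strand (used here) or on the other strand. The 4 rows that name no gene, 64.8% of reads in replicate 1 and 67.0% in replicate 2, entered no library size. All 2202 gene IDs matched M21.

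CPM, computed from the counts, is relative to the reads of all microRNA genes. Intervals are exact: Clopper-Pearson, or the conditional interval of the 2 by 2 table for the change in the pair's ratio between the libraries. Ratios used TMM scaling in edgeR 4.0.16 (R 4.3.3). A single group of 2 libraries leaves a quasi-likelihood test without a contrast, so exact binomial and Fisher tests were used (scipy 1.17.1). A gene shares sequence if 20 bases of its hairpin occur in a microRNA gene elsewhere. Genes that overlap it were left out of this search. Hairpins were folded with RNAfold 2.7.2. The tests were tried on simulated counts that held counting error only. That setting has less spread than these libraries and does not show how the tests behave on them. Named genes are the members, the 3 nearest in level on each side, the 3 pairs nearest in ratio, the extreme pairs, list genes and seed sharers; a few within lists were picked once their values were known. Members and lists were chosen with earlier results of these data known. Alternatives covered scaling (DESeq2 1.42.0 size factors, totals), count filters, count column, GC content, denominators, pair distance and single libraries; the edgeR exact test for the members and clusters of 2 hairpins alone were added after the data were seen.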

Additional observations from a re-analysis of the deposited data

How the results depend on the processing

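The direction of both members' log2 ratios between the libraries held under every alternative that gave a value. Without regard to strand, the mean of Mir191 was 0 CPM, so its log2 ratio and the pair's ratio could not be computed. With all reads as the denominator, the means were 3290 CPM for Mir191 and 193 CPM for Mir425, and with reads of genes without a copy Mir191 had 10589 CPM. From single libraries, Mir191 ranged from 9063 to 10195 CPM, Mir425 from 397 to 748 CPM and the log2 ratio of the pair from 3.60 to 4.68. The log2 ratio between libraries ran from 0.17 (library totals) to 0.32 (DESeq2 size factors) for Mir191 and from -0.92 to -0.76 for Mir425 over all scalings, filters and the GC correction. Library totals put the median of all detected genes at -0.15 in place of -0.05. With the edgeR exact test, Mir191 (0.27) and Mir425 (-0.82) no longer passed, and 2 genes were called in place of 263; 23 had an unadjusted p under 0.05. With no filter, 282 of 756 genes were called. Pairs whose ratio differed between the libraries numbered 45 of 65 within 1 kb, 48 of 65 without a copy and 19 of 26 in clusters of 2 hairpins alone, against 74 of 106; fewer pairs were tested in each. The median log2 gap of pairs was 2.19 with at least 100 reads and 3.57 in clusters of 2 alone, against 2.76. No paired analysis was possible because the 2 libraries form 1 group. Depth sets no limit for the members, whose counts are far above the minimum of 10 reads, while 2 libraries limit what their spread can show.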
